A study of Homo sapiens with 6 samples.

Results

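The genes described here make, desaturate, activate, store, release and oxidise fatty acids. They are 40 genes of the 58735 in the deposited count table, taken by symbol from a list of enzymes, binding proteins and regulators. The list was chosen with earlier results of these data known. They fall into 6 roles: 9 in synthesis and elongation, 5 in desaturation, 7 in uptake and activation, 9 in triglyceride synthesis and storage, 2 in lipolysis and 8 in oxidation. The data are RNA sequencing of 6 libraries of LX-2, an established line of human hepatic stellate cells, the main source of collagen in the injured liver. The labels give the genotype as WT and name NSUN2 siRNA in every library, the controls included; NSUN2 methylates cytosines in RNA. The series' design text names NAT10 for the siRNA, and the sample labels were followed. Cells of 3 libraries had no further treatment, and cells of the other 3 received TGF-β1, the main fibrogenic cytokine of the liver, at 5 ng/ml for 24 hours from 48 hours after transfection. The replicates are labelled biological with no word on separate cultures, so p-values reflect how these libraries vary and no more. Cells without the siRNA were not analysed here, so each change below is that of TGF-β1 in cells given NSUN2 siRNA, in a single line in culture medium with serum.

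Fatty acids are built in the cytosol from acetyl-CoA, which ACLY makes from citrate and the acetyl-CoA carboxylases turn into malonyl-CoA for FASN. Elongases and desaturases then lengthen and unsaturate the products, acyl-CoA synthetases activate them, and the glycerol phosphate pathway of GPAM, AGPAT, lipin and DGAT enzymes joins them into triglyceride kept in droplets coated by perilipins. Lipases free them again, and CPT1 and CPT2 carry them into mitochondria, where malonyl-CoA from ACACB holds CPT1 in check. Resting stellate cells of the liver are known for droplets rich in retinyl ester, which they lose as they become myofibroblasts.

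Libraries held 25828504 to 30034762 counts. Mean NSUN2 was 82.9 ± 1.47 (SD, n = 3) CPM (read counts scaled to library size) without and 100.5 ± 3.07 CPM (SD, n = 3) with TGF-β1, and its silencing was not checked here, since libraries without the siRNA were not analysed. The TGF-β target PMEPA1 rose by 5.70 ± 0.05 on the log2 scale (here and below, ± after a log2 change is the SE). Correlations of log2 CPM were 0.988 to 0.990 within and 0.971 to 0.974 between groups, and the second principal component, with 12.1% of the variance, had TGF-β1 replicates 1 and 3 as its extremes. Of 12 stellate markers, 8 reached 1 CPM, while LRAT, which marks the resting retinoid-storing cell, had no count in any library. Of 10 hepatocyte markers, 4 had no count in any library (APOH, TTR, FGB, CYP3A4) and 1 reached a mean of 1 CPM. Of 6 adipocyte markers, 3 had no count (ADIPOQ, LEP, CIDEC) and 1 reached that mean. The summed level of the 10 hepatocyte markers was 23.7 to 27.5 CPM without and 21.3 to 23.4 CPM with TGF-β1. That of the 6 adipocyte markers was 10.3 to 12.2 and 8.54 to 9.22 CPM. The sums were 11.9 to 14.8 and 15.1 to 18.2 CPM for 7 macrophage markers, 19.8 to 25.6 and 35.9 to 40.1 CPM for 7 endothelial markers, and 71.0 to 72.7 and 56.8 to 58.5 CPM for 5 cholangiocyte markers. Mitochondrial genes took 2.28% to 2.36% of counts without and 2.00% to 2.12% with TGF-β1. The part of these shifts in the results below was not tested. All values in CPM use library sizes scaled by the trimmed mean of M values (TMM). Scaling by library totals alone moved the median change of all tested genes by -0.12 on the log2 scale.

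TGF-β1 moved these genes in both directions. All 40 passed the filter on low counts, and 15 were higher, 15 lower and 10 not called at an adjusted p under 0.05 (edgeR's quasi-likelihood test, Benjamini-Hochberg adjustment over 17215 genes). Calls among all tested genes came to 38.9%, with 20.2% higher and 18.7% lower, against 75.0% of the members, 37.5% in each direction. Most members are well expressed: 37 had a mean of at least 5 CPM and 30 of those were called, or 81.1%, beside 51.6% of protein-coding genes at that level. Library values of the groups did not overlap for 31 members, or 77.5%, against 47.4% of all tested genes. A change of at least 0.5 on the log2 scale was called for 9 members, or 22.5%, beside 14.5% of all tested genes. The median size of the change, whatever its direction, was 0.31 against 0.22 for all tested genes, and the signed medians were -0.02 and -0.01. Medians differed by role, as the plot of log2 changes by role shows. Synthesis and desaturation genes had medians of 0.28 and 0.34, and uptake and activation genes 0.20. Storage genes had a median of -0.17, both lipolysis genes together -0.37 and oxidation genes -0.11. With library totals alone 11 members were higher and 17 lower. With limma on log2(FPKM + 1) and no filter on low values 11 were higher and 9 lower, and the calls of SREBF1, ACACB, ELOVL1, ACSL5, PLIN3, CPT2, ACADVL, ACADM, PPARA and PPARD were lost (limma adjusted p = 0.0501 to 0.232).

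**Figure D1:**
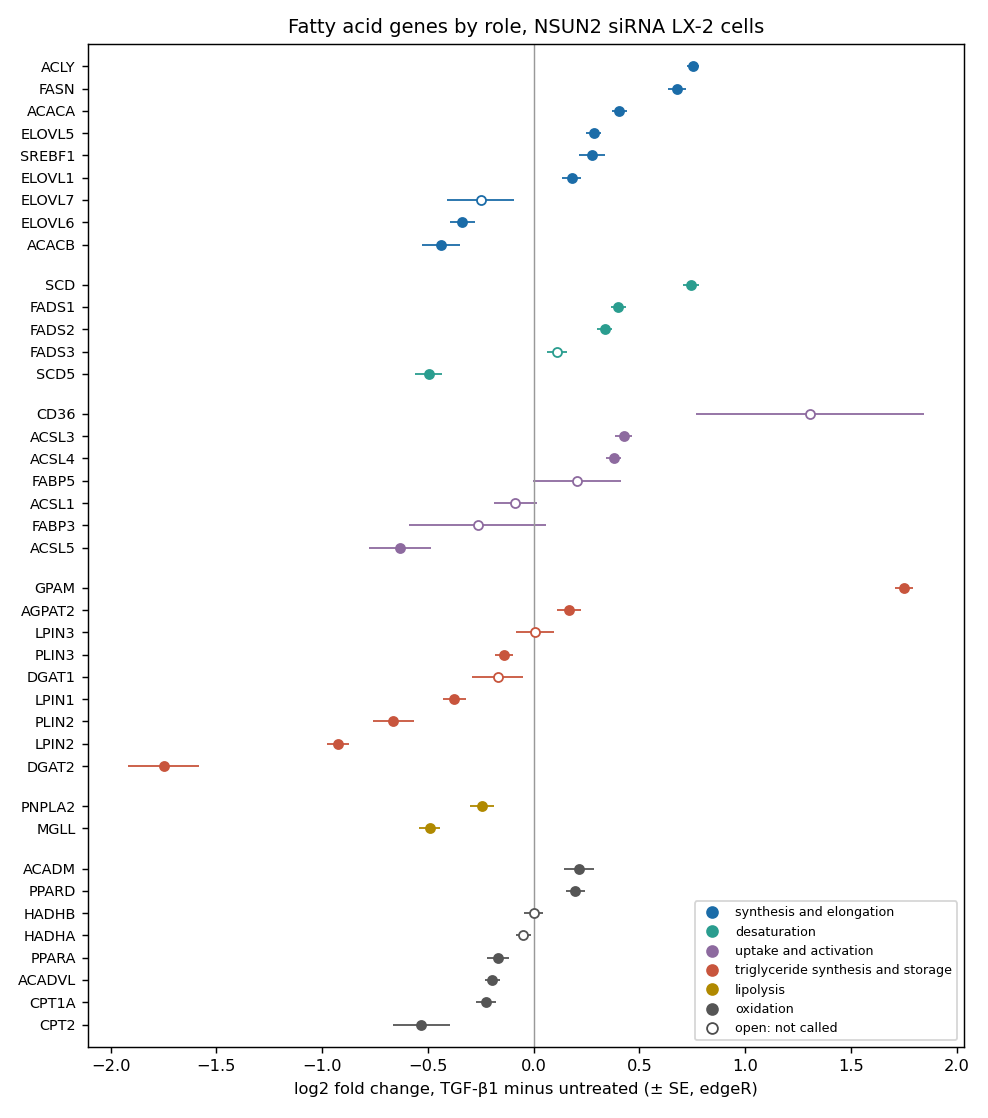
Log2 fold change of the 40 genes, TGF-β1 minus untreated, by role; points are edgeR estimates, bars their SE, filled points passed an adjusted p of 0.05 and open points did not. GPAM lies at the top of its role at 1.75 and DGAT2 at the bottom at -1.75, while 9 of the 14 genes of synthesis and desaturation were called higher (8 with library totals alone).

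The enzymes that lead from citrate to palmitate rose, with the ATP citrate lyase ACLY ahead. Of 9 genes of synthesis and elongation, 6 rose, 2 fell and ELOVL7 was not called. ACLY (ENSG00000131473, chromosome 17, 41866908 to 41930542, minus strand, hg38), which splits citrate into the acetyl-CoA used for synthesis, stood at 477, 467 and 462 CPM in the untreated libraries and at 805, 783 and 784 CPM with TGF-β1. It rose by 0.75 ± 0.03 on the log2 scale, or 1.69-fold (edgeR adjusted p = 1.44e-24). FASN (ENSG00000169710, chromosome 17, 82078333 to 82098332, minus strand), the enzyme that assembles palmitate, had 256, 262 and 244 CPM without and 439, 404 and 377 CPM with TGF-β1, a rise of 0.68 ± 0.04 (edgeR adjusted p = 8.15e-11). For both enzymes the lowest treated library lay far above the highest untreated library. ACACA, the cytosolic acetyl-CoA carboxylase, followed at a smaller size: its untreated libraries held 183, 182 and 179.8 CPM and its treated libraries 251, 235 and 237 CPM. The rise was 0.41 ± 0.04 on the log2 scale (edgeR adjusted p = 5.68e-13).

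SREBF1, which encodes the transcription factor known for driving the genes of this route, rose as well, with a smaller estimate than FASN. Its 3 untreated libraries had 46.9, 48.1 and 46.1 CPM, and the treated libraries 60.7, 59.6 and 50.6 CPM. TGF-β1 replicate 3 stood closest to the untreated group, yet the groups did not overlap, and the rise was 0.28 ± 0.06 (edgeR adjusted p = 2.75e-04). Of SREBF1's exon bases, 6.92% are shared with RAI1 on the opposite strand, which rose by 0.26 on the log2 scale; the sources used here do not say whether the authors' counting used strand. TGF-β1 replicate 1 was the highest and replicate 3 the lowest treated library for SREBF1, FASN and SCD alike. Without replicate 1 their changes were 0.23, 0.62 and 0.71, and without replicate 3 they were 0.36, 0.73 and 0.79.

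ACACB, the mitochondrial carboxylase whose malonyl-CoA restrains CPT1, went the other way from ACACA. Its mean was 23.7 ± 1.39 CPM (SD, n = 3) without and 17.5 ± 1.94 CPM (SD, n = 3) with TGF-β1, and it fell by 0.44 ± 0.09 on the log2 scale (edgeR adjusted p = 1.05e-04). In bulk RNA, fewer cells carrying a transcript and less of it per cell cannot be told apart. The elongases divided. ELOVL5, which lengthens polyunsaturated chains, rose by 0.28 ± 0.04 from 164 to 199 CPM, and ELOVL1, which acts on saturated and monounsaturated very long chains, rose by 0.18 ± 0.05 from 110.2 to 125 CPM, a call lost with library totals alone. ELOVL6, which lengthens palmitate, fell by 0.34 ± 0.06 from 56.4 to 44.6 CPM. ELOVL7, the least abundant, had a change of -0.25 ± 0.16 (edgeR adjusted p = 0.223). Per length, ELOVL1 and ELOVL5 were the most abundant elongases, at 42.6 and 41.7 FPKM in untreated cells against 7.50 FPKM for ELOVL6.

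**Figure D2:**
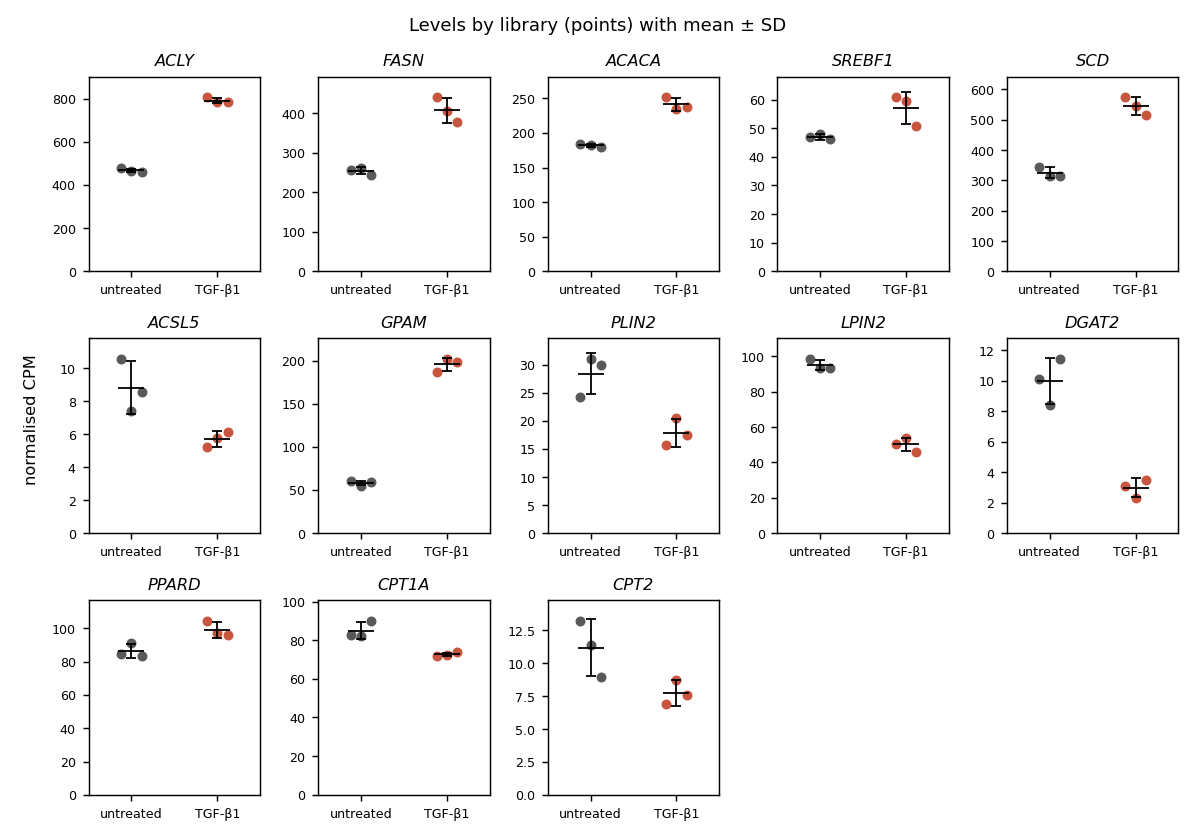
Normalised CPM in each library of 13 of the genes whose values are given library by library (grey untreated, red TGF-β1; lines are the mean ± SD of 3 libraries, each axis starts at 0). GPAM, ACLY, FASN and SCD separate widely upwards and LPIN2 and DGAT2 downwards, while ACSL5 and CPT2 are low in count and spread more.

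Of 5 desaturase genes 3 rose, SCD5 fell and FADS3 was not called. SCD and SCD5 both encode enzymes that place the first unsaturated bond into saturated acyl chains, and they moved in opposite directions. SCD (ENSG00000099194, chromosome 10, 100347124 to 100364834, plus strand) had 345, 313 and 315 CPM in untreated libraries and 573, 545 and 514 CPM in treated libraries. It rose by 0.75 ± 0.04 on the log2 scale, or 1.68-fold (edgeR adjusted p = 8.01e-15), with no overlap between groups. SCD5 (ENSG00000145284, chromosome 4, 82629539 to 82798857, minus strand) had 47.7, 47.8 and 49.9 CPM without and 34.5, 32.3 and 36.4 CPM with TGF-β1, and fell by 0.49 ± 0.06 (edgeR adjusted p = 1.84e-08). FADS1 and FADS2, the front-end desaturases of polyunsaturated fatty acids, rose by 0.40 ± 0.04 and 0.34 ± 0.04, from 168 to 222 CPM and from 143 to 180.0 CPM. They lie on opposite strands of chromosome 11 and overlap at their 5′ ends, with 800 bases between their RefSeq starts, and their exons share 4.79% and 4.44% of bases on opposite strands. FADS3 had 80.1 ± 2.70 and 86.6 ± 4.39 CPM (SD, n = 3 each), a change of 0.11 ± 0.05 that was not called (edgeR adjusted p = 0.0616). It was called without untreated replicate 1 (edgeR adjusted p = 0.0443) and without TGF-β1 replicate 2 (edgeR adjusted p = 0.0330).

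The promoters of SCD, SCD5 and ACLY are shown because SCD and ACLY had the largest rises of the lipogenic enzymes and SCD5 went against its paralogue. Each sequence is the 250 bases before the RefSeq start, written 5′ to 3′ on the gene's own strand (GRCh38.p14), with CCAAT boxes of either strand in capitals. The CCAAT box is a site for the factor NF-Y, a known partner of SREBP proteins at lipogenic promoters.
SCD, chr10:100346983-100347232, plus strand: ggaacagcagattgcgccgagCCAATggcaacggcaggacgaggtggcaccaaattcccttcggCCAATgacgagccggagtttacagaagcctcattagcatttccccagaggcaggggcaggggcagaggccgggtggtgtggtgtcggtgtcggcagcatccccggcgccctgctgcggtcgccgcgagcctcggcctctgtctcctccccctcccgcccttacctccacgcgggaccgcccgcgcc
SCD5, chr4:82798797-82799046, minus strand: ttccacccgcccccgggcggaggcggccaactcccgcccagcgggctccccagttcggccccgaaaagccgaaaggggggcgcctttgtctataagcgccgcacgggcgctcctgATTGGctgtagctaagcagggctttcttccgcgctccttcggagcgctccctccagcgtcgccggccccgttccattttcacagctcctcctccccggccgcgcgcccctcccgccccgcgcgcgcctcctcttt
ACLY, chr17:41919023-41919272, minus strand: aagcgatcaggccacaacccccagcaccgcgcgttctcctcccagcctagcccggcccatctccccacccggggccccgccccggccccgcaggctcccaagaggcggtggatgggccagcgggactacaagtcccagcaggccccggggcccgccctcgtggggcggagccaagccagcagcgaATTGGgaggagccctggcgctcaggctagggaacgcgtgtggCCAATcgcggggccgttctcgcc
The SCD window holds 2 CCAAT boxes, 229 and 186 bases before the start, both on the gene's strand. ACLY also holds 2, closer in, at 65 bases on the opposite strand (ATTGG as printed) and 23 bases on its own strand. SCD5 holds 1, on the opposite strand at 135 bases. A match of letters is a description and shows no binding, and the box did not separate the gene that rose from its paralogue that fell.

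Of the 7 genes of uptake and activation, 2 rose, 1 fell and 4 were not called. The 42.9% called was close to the 38.9% of all tested genes. The risers were ACSL3, an acyl-CoA synthetase of the endoplasmic reticulum and droplets, and ACSL4, which prefers arachidonic acid. ACSL3 went from 115 ± 6.03 to 154 ± 1.73 CPM and ACSL4 from 150.0 ± 2.00 to 195 ± 1.27 CPM (SD, n = 3 each), rises of 0.43 ± 0.04 and 0.38 ± 0.04. ACSL5 (ENSG00000197142, chromosome 10, 112374018 to 112428380, plus strand), a synthetase of mitochondria and endoplasmic reticulum, had 10.6, 7.38 and 8.57 CPM without and 5.22, 5.76 and 6.14 CPM with TGF-β1. It fell by 0.63 ± 0.15 on the log2 scale (edgeR adjusted p = 5.56e-04); the groups did not overlap, though untreated replicate 1 stood well above the others. Of ACSL5's exon bases, 3.40% are shared with ZDHHC6 on the opposite strand. ACSL1, the main synthetase of fat and liver cells, had 17.0 ± 1.03 and 16.0 ± 2.39 CPM (SD, n = 3 each) with a change of -0.09 ± 0.10.

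CD36 and the fatty acid binding proteins were low. CD36, the scavenger receptor that takes up long chains, had 12, 7 and 7 counts in the untreated libraries and 15, 32 and 11 in the treated libraries. TGF-β1 replicate 2 held most of the treated counts. Raw counts of the groups overlapped, while in CPM the highest untreated library, at 0.384, lay below the lowest treated library, at 0.425. The change was 1.31 ± 0.54 and was not called (edgeR adjusted p = 0.0503). Without TGF-β1 replicate 3 it was called (edgeR adjusted p = 0.0341). FABP3 and FABP5, which carry fatty acids in the cytosol, had 1.56 and 4.04 CPM without and 1.30 and 4.64 CPM with TGF-β1, and neither was called (edgeR adjusted p = 0.566 and 0.486). The processed copy FABP5P7 held 207 counts over the 6 libraries, or 28.4% of those given to FABP5, so the FABP5 level is uncertain.

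Triglyceride synthesis held both the largest rise and the largest fall of the 40 genes. GPAM (ENSG00000119927, chromosome 10, 112149864 to 112215377, minus strand), the mitochondrial acyltransferase that starts glycerolipid synthesis, stood at 60.1, 55.0 and 59.0 CPM in untreated libraries and at 187, 201 and 198 CPM in treated libraries. It rose by 1.75 ± 0.04 on the log2 scale, or 3.37-fold (edgeR adjusted p = 1.39e-31), and the lowest treated library was far above every untreated library. DGAT2 (ENSG00000062282, chromosome 11, 75759512 to 75801535, plus strand), which adds the last acyl chain to diacylglycerol, had 10.1, 8.40 and 11.4 CPM without and 3.11, 2.30 and 3.51 CPM with TGF-β1. It fell by 1.75 ± 0.17 on the log2 scale, to 0.297 of its untreated level (edgeR adjusted p = 9.26e-12), with no overlap. On log2(FPKM + 1), which understates changes of low genes, limma put the fall of DGAT2 at 0.70. The other final acyltransferase, DGAT1, had 13.7 ± 2.31 and 12.1 ± 1.74 CPM (SD, n = 3 each) and a change of -0.17 ± 0.12 that was not called (edgeR adjusted p = 0.295).

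Between the first and last acylation, AGPAT2 rose and the lipins fell or were not called. AGPAT2, which makes phosphatidic acid, had 46.1, 46.1 and 46.2 CPM without and 51.6, 51.5 and 52.5 CPM with TGF-β1, a rise of 0.17 ± 0.06 (edgeR adjusted p = 0.0147). With library totals alone it was not called. Lipins remove the phosphate from phosphatidic acid to give diacylglycerol. LPIN2 (ENSG00000101577, chromosome 18, 2916994 to 3013315, minus strand) had 98.4, 93.6 and 93.6 CPM in untreated and 50.3, 54.0 and 46.2 CPM in treated libraries. It fell by 0.92 ± 0.05 on the log2 scale, to 0.527 of its untreated level (edgeR adjusted p = 8.95e-19). LPIN1 fell less, by 0.37 ± 0.06, from 63.3 to 48.8 CPM, and LPIN3 was not called at 18.8 ± 0.688 and 18.9 ± 1.27 CPM (SD, n = 3 each). Per length, LPIN2 was the most abundant lipin of untreated cells at 13.6 FPKM, against 5.18 for LPIN1 and 3.98 for LPIN3, and with TGF-β1 the values were 7.18, 4.01 and 4.02 FPKM.

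Both droplet coat genes fell. PLIN2 (ENSG00000147872, chromosome 9, 19108375 to 19149290, minus strand), the perilipin whose level is known to follow droplet content in most cells, had 24.2, 31.0 and 30.0 CPM without and 15.6, 20.5 and 17.5 CPM with TGF-β1. The highest treated library lay below the lowest untreated library, and PLIN2 fell by 0.66 ± 0.10 on the log2 scale (edgeR adjusted p = 8.65e-07). PLIN3, a perilipin that moves from the cytosol to nascent droplets, fell by 0.14 ± 0.04 from 118 to 107 CPM (edgeR adjusted p = 0.00674), and was not called without untreated replicate 2 (edgeR adjusted p = 0.0535). Of the 9 genes of triglyceride synthesis and storage, 2 thus rose, 5 fell and 2 were not called.

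The lipases of stored fat also fell. PNPLA2, or ATGL, which makes the first cut in triglyceride, went from 55.9 ± 3.73 to 47.1 ± 1.13 CPM (SD, n = 3 each), a fall of 0.24 ± 0.06 on the log2 scale (edgeR adjusted p = 6.77e-04). MGLL, which cuts the last fatty acid from monoacylglycerol, had 92.8, 90.1 and 92.2 CPM without and 62.2, 68.9 and 64.4 CPM with TGF-β1. It fell by 0.49 ± 0.05 (edgeR adjusted p = 1.91e-11). Neither gene's groups overlapped.

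Changes of the 8 oxidation genes were small: 2 rose, 4 fell and 2 were not called, and the largest was the -0.53 of CPT2 on the log2 scale. CPT1A (ENSG00000110090, chromosome 11, 68754620 to 68844410, minus strand), the gate for entry of long chains into mitochondria, had 82.9, 82.2 and 89.9 CPM without and 72.0, 72.3 and 73.7 CPM with TGF-β1, and fell by 0.23 ± 0.05 (edgeR adjusted p = 1.57e-04). CPT2 (ENSG00000157184, chromosome 1, 53196429 to 53214197, plus strand), which restores acyl-CoA inside, had 13.2, 11.4 and 8.92 CPM in untreated and 6.87, 8.76 and 7.57 CPM in treated libraries. Its groups came close but did not overlap, and it fell by 0.53 ± 0.14 (edgeR adjusted p = 0.00156). On log2(FPKM + 1) with limma CPT2 was not called (adjusted p = 0.0861). ACADVL, the dehydrogenase of very long chains, fell by 0.19 ± 0.04 from 239.5 to 209 CPM. ACADM, which acts on medium chains, had a rise of 0.21 ± 0.07 that passed the test (edgeR adjusted p = 0.0147) although its groups overlapped, at 33.4, 31.9 and 37.5 CPM against 36.1, 42.4 and 40.5 CPM. That call was lost in 7 of 14 alternative analyses, among them those without untreated replicate 1 or 2 or TGF-β1 replicate 2 (edgeR adjusted p = 0.0679, 0.114 and 0.101), and RABGGTB, which shares 3.28% of its exon bases on the same strand, rose by 0.42.

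HADHA and HADHB encode the subunits of the trifunctional protein, which carries out the last steps of long-chain oxidation, and neither was called. HADHA had 239.7, 237 and 233 CPM without and 228, 222 and 237 CPM with TGF-β1, a change of -0.05 ± 0.03. HADHB had 86.1, 88.4 and 87.2 CPM without and 87.4, 88.8 and 85.5 CPM with TGF-β1, a change of 0.00 ± 0.04. With library totals alone both were called lower, at -0.17 and -0.12, and of the 8 oxidation genes 6 were then lower and the other 2 not called. The 2 genes point away from each other with 307 bases between their RefSeq starts. In the deposited gene coordinates their 5′ ends overlap, with HADHB from 26243170 and HADHA up to 26244726. The 194 bases that both promoter windows hold are printed here on the plus strand, with the single GC box in capitals (CCGCCC on this strand). They lie upstream of both RefSeq starts of a pair whose ratio did not separate the groups.
HADHA and HADHB, chr2:26244689-26244882: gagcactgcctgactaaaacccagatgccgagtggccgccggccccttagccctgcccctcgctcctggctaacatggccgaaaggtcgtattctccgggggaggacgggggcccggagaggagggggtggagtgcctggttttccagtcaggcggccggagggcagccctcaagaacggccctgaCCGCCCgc

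The nuclear receptors that switch on oxidation genes moved apart. PPARA, the receptor of fasting liver, fell by 0.17 ± 0.05 from 72.0 to 64.0 CPM (edgeR adjusted p = 0.00736), a call lost without TGF-β1 replicate 1 (edgeR adjusted p = 0.0811). PPARD (ENSG00000112033, chromosome 6, 35342558 to 35428191, plus strand), the widely expressed receptor of the family, had 84.8, 91.2 and 83.2 CPM without and 104, 97.0 and 95.9 CPM with TGF-β1. It rose by 0.20 ± 0.05 with no overlap (edgeR adjusted p = 5.89e-04), and was not called with library totals alone.

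Ratios of related genes within a library do not depend on the scaling between libraries. Of 10 pairs, compared per length from FPKM, 9 had no overlap between groups. For 3 against 3 libraries this gives an exact permutation p of 0.1, the smallest possible (two-sided, 0.111 adjusted over the 10 pairs). The pairs were chosen with earlier results of these data known, and the share of other gene pairs without overlap was not computed. Taken singly, 77.5% of the members and 47.4% of all tested genes had no overlap. The ratio of SCD to SCD5 was 5.80, 5.24 and 5.06 in untreated and 13.3, 13.5 and 11.3 in treated libraries, so SCD went from 84.3% to 92.7% of the desaturase transcripts of this pair. The ratio of ACACA to ACACB went from 8.58 ± 0.579 to 15.4 ± 1.10 (SD, n = 3 each), a log2 difference of 0.84 ± 0.08. That of DGAT1 to DGAT2 was 2.08, 3.41 and 2.52 without and 8.10, 10.9 and 5.51 with TGF-β1, a log2 difference of 1.59 ± 0.35 that came with the low count of DGAT2.

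Among the acyl-CoA synthetases the mean ratio of ACSL4 to ACSL5 went from 11.4 to 22.7 and that of ACSL3 to ACSL1 from 5.88 to 8.52. PLIN2 was 0.133 of PLIN3 in untreated and 0.0924 in treated libraries, and the ratio of PPARD to PPARA was 3.56 and 4.62. LPIN1 went from 1.30 to 1.00 times LPIN3. The ratio of FADS1 to FADS2 was 1.27 ± 0.00672 in untreated and 1.33 ± 0.0223 in treated libraries (SD, n = 3 each), with the smallest of the 9 differences at 0.06 ± 0.01. HADHA to HADHB, at 2.65 ± 0.0603 and 2.56 ± 0.136 (SD, n = 3 each), was the pair whose groups overlapped (exact permutation p = 0.4).

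**Figure D3:**
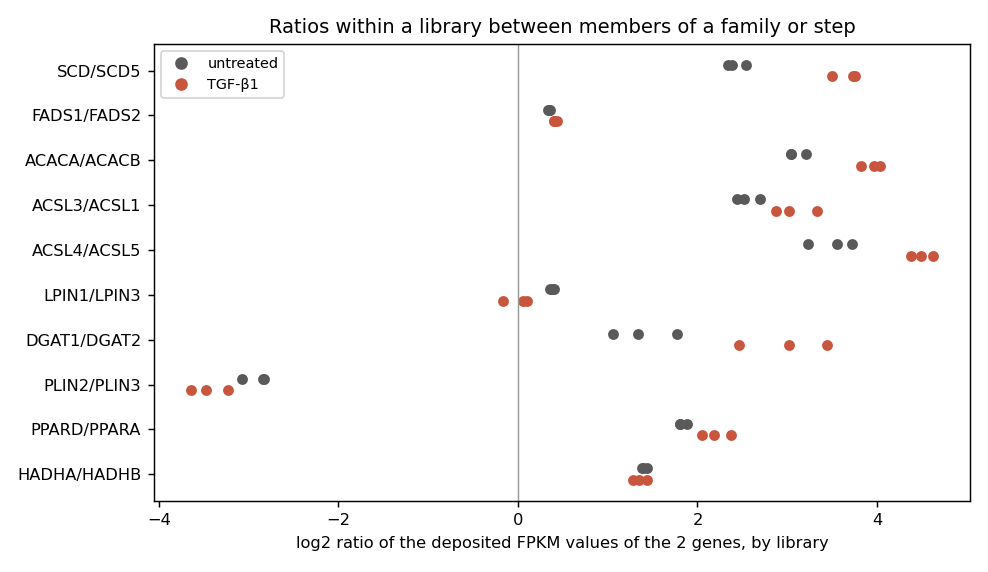
Log2 ratio of FPKM within each library for 10 pairs of related genes (grey untreated, red TGF-β1, one point per library). The groups are apart for 9 pairs, by 1.59 for DGAT1/DGAT2 and 1.24 for SCD/SCD5 down to 0.06 for FADS1/FADS2, and overlap for HADHA/HADHB.

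The wider pathway was read from 9 further lists with 137 genes, of which 111 were tested. Among them 16 rose and 40 fell, or 14.4% and 36.0% beside the 20.2% and 18.7% of all tested genes, and the median change was -0.12. Genes that control lipogenesis were split, 3 higher and 3 lower of 14 tested, or 21.4% each way (2 and 6 with library totals alone). Without untreated replicate 3 only 1 was lower, and with limma on log2(FPKM + 1) 0 were. Of the lower genes, MLXIPL and PPARGC1A had means of 0.427 and 0.429 CPM, and the groups of MLXIPL overlapped. INSIG1, an SREBP target that retains the SREBP complex in the endoplasmic reticulum, rose by 0.74 ± 0.05 from 64.1 to 107 CPM. MLXIP, a glucose-responsive transcription factor, rose by 0.93 ± 0.06 from 134 to 255 CPM. The nuclear receptor RXRA fell by 0.26 ± 0.08. Genes that supply acetyl-CoA, malonyl-CoA and NADPH had 3 higher and 4 lower of 9 (1 and 6 with library totals alone). ACSS2, which makes acetyl-CoA from acetate, fell by 0.73 ± 0.08 from 40.1 to 24.1 CPM, in the opposite direction to ACLY. TKT, of the pentose phosphate pathway, rose by 0.23 ± 0.03. Of 11 partners of the elongation cycle 4 fell and 7 were not called (6 fell with library totals alone). The falls were led by the elongase ELOVL2, which fell by 0.97 ± 0.08, and the electron carrier CYB5A, which fell by 0.47 ± 0.10, with TECR, a reductase of the cycle, at -0.13 ± 0.05.

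Genes of uptake and acyl-CoA handling outside the 40 had 3 higher and 3 lower of 17 (1 and 6 with library totals alone). That is 17.6% each way, close to the 20.2% higher and 18.7% lower of all tested genes. The largest rise was that of SLC27A4, by 0.40 ± 0.06 from 48.8 to 64.3 CPM. CAV1, the coat protein of caveolae, fell by 1.25 ± 0.03, ACOT2, a mitochondrial thioesterase, by 0.46 ± 0.10, and the lipoprotein receptor VLDLR by 0.42 ± 0.08. Among 11 other glycerolipid acyltransferases and related enzymes 3 rose and 4 fell. GPAT4, which catalyses the same step as GPAM in the endoplasmic reticulum, rose by 0.34 ± 0.04, as did AGPAT4 by 0.34 ± 0.07. CDS1, which takes phosphatidic acid towards other phospholipids, rose by 1.25 ± 0.16 from 3.51 to 8.37 CPM.

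Of 12 other lipid droplet and lipase genes 1 was higher and 7 lower (8 lower and the other 4 not called with library totals alone), beside the falls of PLIN2, PNPLA2 and MGLL above. G0S2, an inhibitor of PNPLA2, had 682, 679 and 709 CPM without and 273, 286 and 287 CPM with TGF-β1, and fell by 1.29 ± 0.03 (edgeR adjusted p = 7.47e-32). SOAT1, which esterifies cholesterol, and the lysosomal lipase LIPA fell by 0.41 ± 0.05 and 0.40 ± 0.04. Of 18 other mitochondrial oxidation genes 7 fell and 11 were not called (16 fell with library totals alone). The lower calls came to 38.9%, beside 18.7% lower among all tested genes, and no gene was called higher. Changes in this list ran from -1.23 to -0.02, with a median of -0.21. ECI2 and DECR1, which deal with unsaturated chains, fell by 1.23 ± 0.07 and 0.70 ± 0.13, and ACADSB, a dehydrogenase of short branched chains, by 0.61 ± 0.11. Peroxisomal genes had 2 higher and 7 lower of 15 (1 and 8 with library totals alone). ACOX3, an oxidase of branched chains, rose by 0.25 ± 0.07, while ECH1 and PHYH fell by 0.48 ± 0.09 and 0.45 ± 0.12. Of 4 tested PPAR target genes 1 was higher, 1 lower and 2 not called. ANGPTL4, a secreted inhibitor of lipoprotein lipase that TGF-β is also known to induce, rose by 2.04 ± 0.06 from 19.2 to 79.0 CPM. The lower gene was VNN1, with a change of -2.85 at a mean under 5 CPM.

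**Figure D4:**
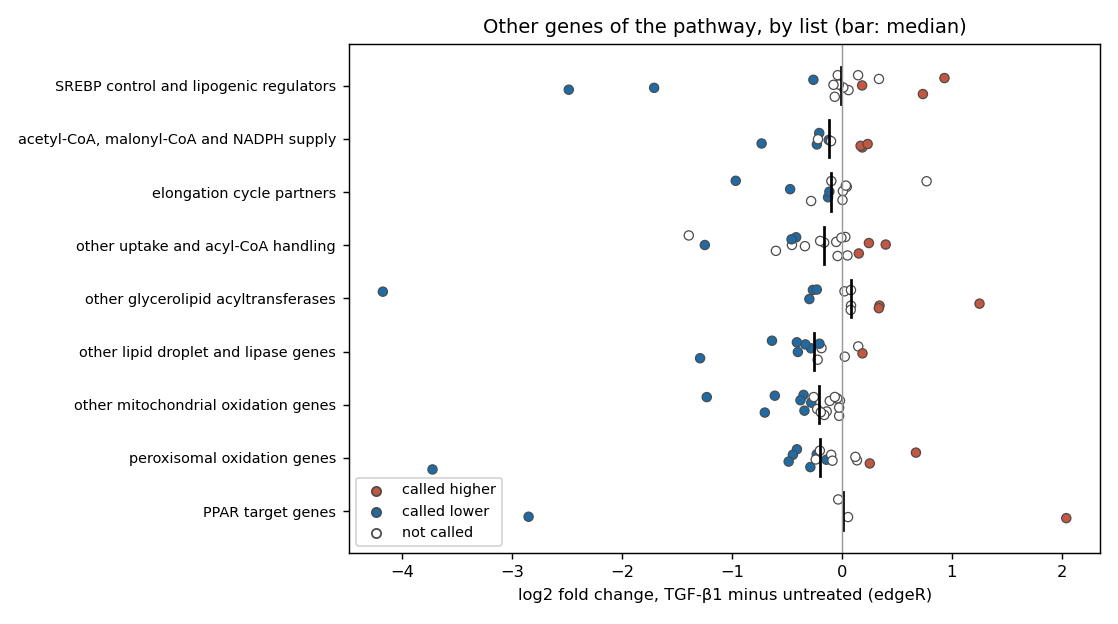
Log2 fold change, TGF-β1 minus untreated, of the tested genes of the 9 further lists; each point is a gene (red called higher, blue called lower, open not called), and bars are list medians. Calls lean downwards in the droplet, elongation, mitochondrial and peroxisomal lists, and ANGPTL4 stands highest at 2.04.

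Promoter windows of 250 bases before to 50 after the start were in the RefSeq table (GRCh38.p14) for 34 of the 40 genes, 14 that rose, 13 that fell and 7 not called. Motifs were searched on both strands as fixed letters. The CCAAT box (CCAAT) occurred in 11 of the 34, namely 7 that rose, 3 that fell and 1 not called, against 34.6% of all 35116 windows. The GC box (GGGCGG), known for binding SP1, occurred in 25, with 12, 8 and 5 in these classes, against 45.0% of all windows. The nuclear receptor half-site AGGTCA occurred in 3 of the 34, a smaller share than the 13.8% of all windows. The 3 genes, ELOVL6, ACSL5 and PNPLA2, all fell. A sterol-response-like element (TCACNCCAC) was found in PNPLA2 alone, against 1.13%, and the E-box CACGTG in ELOVL5 and PLIN2, against 7.26%. The palindromic SMAD element GTCTAGAC was in none, against 0.202%. Windows are short, and letters that are missing from them say nothing of sites elsewhere.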

How the data were processed

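Members were taken by symbol, and the members, lists and pairs were chosen with earlier results of these data known. The authors deposited whole-number read counts per gene, and an FPKM table that equals those counts divided by gene length and 1 library size per library (largest relative deviation 4.03e-09), so the deposited FPKM values are no independent measurement. The submitters' processing notes name fastp, HISAT2 2.2.1 and build hg38; the sources used here give no counting tool, strand setting or annotation. In each of the 2 tables, 6 columns of values, headed con and TGFB, matched no sample and were not used.

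Counts were tested over 17215 genes kept by filterByExpr (minimum count 10, minimum total 15) with edgeR 4.0.16 in R 4.3.3: TMM factors, robust quasi-likelihood fit, group as the only term, two-sided, Benjamini-Hochberg adjustment, adjusted p under 0.05, 4 residual degrees of freedom. The biological coefficient of variation was 5.62%. The SE is the size of the log2 fold change over the square root of F. Alternatives were DESeq2 1.42.0 (size factors, Wald test), library totals alone, no filter, a replicate block, limma 3.58.1 on log2 FPKM with pseudocounts of 1 and 0.1, and each library left out. Ratios of pairs used FPKM and an exact permutation test. Exon overlaps used GENCODE 29. Scripts were tested on simulated data.

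Values in every library are given for members called with a change of at least 0.5 (log2) and a mean of at least 5 CPM, and for SREBF1, FASN, ACACA, SCD, PLIN2, CPT1A and PPARD; in each further list, up to 3 called genes above 5 CPM are named, by size of change; some genes taken by these rules are not reported here. SCD5, MGLL, AGPAT2, ACADM, HADHA, HADHB, CD36, ACOX3, SLC27A4, MLXIPL and the library values of G0S2 were added after values were seen.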

Additional observations from a re-analysis of the deposited data

How the results depend on the processing

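Over 14 alternative analyses, 21 of the 40 genes kept their direction and their side of the threshold in every one, and 19 did not in at least 1. Library totals alone gave 2019 higher and 5354 lower genes in the whole table (3471 and 3226 with TMM) and moved the median of the 40 genes to -0.14, the shift being that of all genes. Under it FADS3 was at -0.0081, LPIN3 at -0.11 and HADHB at -0.12. limma on log2(FPKM + 1) with no filter on low values, which tests more genes, called 2337 genes higher and 1881 lower in the table, and 11 and 9 of the 40 (15 and 15 in the edgeR test). Some changes that were not called turned sign: HADHB was at -0.0015 with no filter, and over the left-out libraries FABP3 ran from -0.47 to 0.026, FABP5 from -0.070 to 0.42, ACSL1 from -0.18 to 0.029, LPIN3 from -0.040 to 0.055 and HADHB from -0.011 to 0.019. Leaving out each library gave 3089 to 3366 higher and 2850 to 3009 lower genes, and 14 to 16 higher and 14 to 15 lower among the 40. Same-numbered libraries did not deviate together (correlations -0.0091 to 0.011); with the replicate number as a block, 15 of the 40 were higher and 15 lower, and 3431 and 3182 in the table. Low counts limit CD36, FABP3 and FABP5, each under 5 CPM. With 3 libraries a group, no ratio of a pair can pass an exact test at 0.05.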

Other observations

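Genes under the mean of 5 CPM used for naming were examined after their values were seen. GPAT3, a glycerol phosphate acyltransferase of the endoplasmic reticulum that catalyses the step of GPAM, had 3.49, 4.04 and 3.61 CPM in the untreated libraries and 0, 0.244 and 0.348 CPM in the treated libraries, or 333 counts against 16. It fell by 4.18 on the log2 scale (edgeR adjusted p = 2.71e-11), so the acyltransferases of this first step moved apart: GPAM and GPAT4 rose and GPAT3 fell. ACOX2, a peroxisomal oxidase of branched chains, had 124 counts without and 8 with TGF-β1 and fell by 3.72 (edgeR adjusted p = 9.87e-07). VNN1, a pantetheinase and PPAR target, had 118 and 14 counts and fell by 2.85 (edgeR adjusted p = 1.16e-05). PPARGC1A, the coactivator of oxidation genes, had 64 and 10 counts and fell by 2.48 (edgeR adjusted p = 0.00193); untreated replicate 3, at 1.36 CPM, held most of its untreated level, with 0.448 and 0.394 CPM in the other libraries of that group and 0.162, 0.140 and 0.0772 CPM with TGF-β1.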
